A study of Oryza sativa with 6 samples.

Results

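The comparison described here is the response of rice roots to the lack of nitrogen that the varieties Prasanna and Varadan had in common. It uses 6 of the 6 arrays of the series, 2 without nitrogen and 4 with it, and is repeated on 5 arrays. The arrays carry RNA from whole roots of hydroponic Oryza sativa seedlings, given as 14 days old. After 7 days of germination, seedlings of both varieties spent 10 days in hydroponic Yoshida solution that contained nitrogen. They were then moved to the same medium either without nitrogen or with it. Those days sum to more than the stated age, and how long the final treatment lasted is not given in the sources used here. Prasanna without nitrogen and Varadan without nitrogen have 1 array each, and each variety with nitrogen has 2. No label says that the replicates came from separate cultures, so the errors and p-values below cover the spread among these arrays alone, and that spread may be technical. The 2 varieties are named without further description of their genotype. The labels name no mutation and no treatment other than the nitrogen supply.

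Plant roots take up nitrogen as nitrate through NRT transporters, as ammonium through AMT transporters and as urea through DUR3. Nitrate is reduced to nitrite and ammonium inside the cell and built into amino acids. Many genes of uptake are known to be induced when nitrogen runs short, while genes of nitrate reduction and several nitrate-induced regulators follow the presence of nitrate. Growth, sugar use, hormone synthesis and the root's water-tight barriers are also known to be tied to nitrogen status.

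All values are log2 signals of single probe sets, and a difference is the level without nitrogen minus the level with it. The median log2 signal lay between 5.59 and 6.11 on the 6 arrays, and the replicates with nitrogen correlated at r = 0.925 (Prasanna) and 0.909 (Varadan) across the tested probe sets. Of 4 root marker genes 3 were bright on every array: the silicon transporter gene OsNIP2.1 (Lsi1) read 14.52 to 15.21, Lsi2 13.57 to 14.83 and the iron transporter gene OsIRT1 14.34 to 15.63. The fourth, the endodermis gene OsSCR1, read 7.0 to 7.69. The 3 seed storage genes averaged 3.73 to 6.15. The mean of 6 green-tissue genes, all of them well above background, was 11.99 in Prasanna without nitrogen and 11.63 and 11.28 with it. In Varadan it was 13.81 without nitrogen, 12.96 on replicate 1 with nitrogen and 11.75 on replicate 2. This mean was thus highest without nitrogen in each variety. In Prasanna the light-harvesting genes CAB2R (13.71 against 13.42 and 13.74) and LHCP (11.67 against 11.68 and 11.79) were not highest there. The part of the green markers in the results below was not tested. In whole roots, fewer cells of a type and less RNA per cell cannot be told apart. The Varadan array without nitrogen and Varadan with nitrogen, replicate 1, have their columns exchanged between the log2 table used here and the deposited series matrix, and which is right cannot be told apart from these sources.

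Over all 6 arrays no probe set passed the test for a nitrogen difference fitted across both varieties. That test does not ask whether each variety responded. The additive model of variety and nitrogen supply (limma, Benjamini-Hochberg adjustment at 0.05) called 0 of 34316 probe sets, with a smallest adjusted p of 0.123. At an unadjusted p under 0.05 there were 7420 (21.6%). The groups did not overlap, with both arrays without nitrogen beyond all 4 with it, for 4846 probe sets on the higher side (14.1%) and 5997 on the lower side (17.5%). By gene these were 3024 of 21680 (13.9%) and 4341 (20%). All gene values from the 6 arrays are therefore descriptions and not calls. The named genes with the widest gap between the groups are given next, 12 in each direction.

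Several of the higher genes code for factors known from cold and drought responses. DREB1G (Os02g0677300), a relative of the cold-response factors, read 7.93 in Prasanna and 8.64 in Varadan without nitrogen. The Prasanna levels with nitrogen were 5.88 and 5.20, the Varadan levels 3.28 and 5.06, with the reading of 3.28 below background. The difference was at least 3.03, and with the exchanged columns of the series matrix it turned to -0.59. OsHox22 (Os04g0541700), a homeodomain leucine zipper gene, read 11.85 and 11.64 without nitrogen against 9.84, 9.21, 10.31 and 9.18 with it, in the same order of varieties and replicates. Its difference was 2.11 ± 0.36 (SE). By the choice of these genes Varadan replicate 1 lay below both arrays without nitrogen, here by more than 1 log2 unit. The stress-associated zinc finger gene OsiSAP1 (Os09g0486500) read 13.12 and 12.26 against 11.14, 9.69, 11.01 and 9.74, a difference of 2.29 ± 0.50.

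Signalling and chlorophyll genes made up another portion of the higher genes. CML16 (Os01g0135700), a calmodulin-like calcium sensor gene, read 12.51 and 12.56 without nitrogen and 11.19, 10.28, 11.27 and 10.14 with it. The levels of the varieties nearly coincided in each supply, and the difference was 1.81 ± 0.37. OsPP2C09 (Os01g0846300), a protein phosphatase 2C gene of abscisic acid signalling, read 13.17 and 12.69 against 11.03, 10.29, 11.56 and 10.42 (2.1 ± 0.38). SGR (Os09g0532000), the stay-green gene of chlorophyll breakdown, read 12.60 and 12.41 against 10.49, 9.78, 11.25 and 8.37 (2.53 ± 0.71). SGR was higher without nitrogen, as was the mean of the green markers given above, whose part in it was not tested. The remaining higher genes were OsTBT2, OsSTLP3, the germin-like gene OsGER8, the cytochrome P450 gene CYP76M5, CLPC3 and OsPP2C51. Of these, OsTBT2 (2.85), OsSTLP3 (2.23), CYP76M5 (2.06) and OsGER8 (1.82) were above background on all arrays. CLPC3 had 4 readings below background and OsPP2C51 had 3, so that only differences of at least 0.97 and 1.60 can be given. In the series matrix OsTBT2 (-0.44) and CLPC3 (-0.10) also turned.

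On the lower side IMCE and HAP2B had the widest gaps, with readings below background, and OsMIF2 and ARF5 came next. OsMIF2 (Os09g0414500), a mini zinc finger gene, read 7.07 in Prasanna and 6.96 in Varadan without nitrogen, and 9.30, 8.98, 8.88 and 8.87 with it. Both supplies formed tight sets about 2 log2 units apart (-1.99 ± 0.23). ARF5 (Os02g0141100), an auxin response factor gene, read 7.56 and 7.71 against 9.45, 9.88, 9.52 and 10.58 (-2.23 ± 0.33). OsZHD10 (Os08g0438400), a zinc finger homeodomain gene, read 7.23 and 7.76 against 9.16, 9.59, 9.16 and 10.14 (-2.02 ± 0.33). For these 3 genes Varadan replicate 1 stood closer to the other arrays with nitrogen than to either array without it, which their choice favoured.

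OsCPS (Os02g0278700), which codes for the enzyme of the first committed step to gibberellin, read 6.56 and 6.25 against 7.86, 8.17, 7.67 and 8.40 (-1.62 ± 0.33). OsORC1 (Os06g0187000), a subunit of the origin recognition complex, read 7.78 and 6.38 against 8.95, 8.97, 9.04 and 8.87 (-1.88 ± 0.35, but 0.12 in the series matrix). All 4 arrays with nitrogen lay close together for OsORC1, while those without it differed by more than 1 unit. ML3 (Os05g0102800) read 8.22 and 7.86 against 11.05, 11.21, 9.49 and 11.08 (-2.67 ± 0.42), with the Varadan replicate 1 midway. IMCEL1 (Os06g0708100) stood at -1.91 ± 0.34. The other five had both readings without nitrogen below background: the CCAAT-binding factor gene HAP2B (-1.22 or lower), OsAHT1 (-1.29 or lower), the squamosa promoter-binding gene SPL7 (-0.89 or lower), IMCE (-0.74 or lower) and the yellow stripe-like transporter gene osysl11 (-0.52 or lower).

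**Figure D1:**
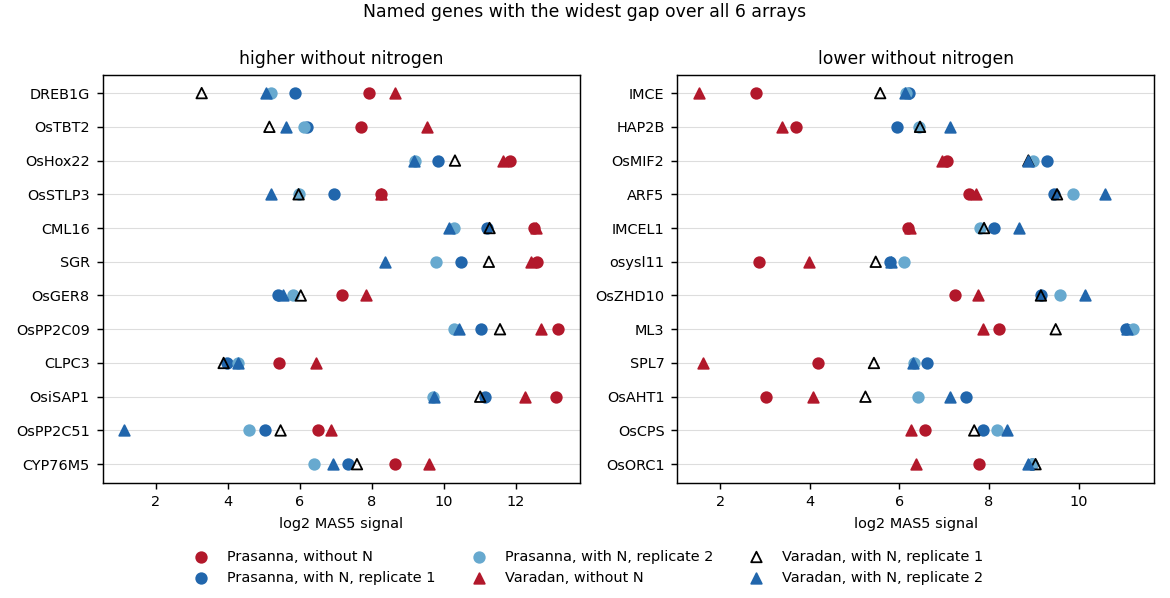
Log2 MAS5 signal of the 24 named genes with the widest gap between the arrays without nitrogen (red) and with nitrogen (blue, light blue and open black) over all 6 arrays, circles for Prasanna and triangles for Varadan, 1 point per array. For OsMIF2 the arrays without nitrogen read 7.07 and 6.96 and those with it 8.87 to 9.30, and by the choice of these genes no red point lies among the others.

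The response was next taken within each variety, as 1 array without nitrogen minus the mean of 2 with it. These responses share no array, so a probe set that moved in both was seen in separate samples, but neither response alone has a replicate without nitrogen and no test was made. In Prasanna 5066 probe sets were at least 2-fold higher without nitrogen and 3894 at least 2-fold lower, and in Varadan 5380 and 3991. Higher in both were 1840 (5.36% of the probe sets tested), which is 36.3% of the Prasanna set and 34.2% of the Varadan set. Lower in both were 1088 (3.17%), or 27.9% and 27.3% of the sets. Opposite 2-fold responses were seen in 423 probe sets (higher in Prasanna) and 637 (higher in Varadan). The responses correlated at r = 0.253 across the 34316 probe sets, which share the scaling of each array and are not independent replicates.

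The Varadan replicate chosen moved these numbers. Against replicate 1 only, 1251 probe sets were higher in both and 691 lower, with r = 0.086. Against replicate 2 only, 2472 were higher in both and 1697 lower, with r = 0.355. In the series matrix, where the 2 exchanged columns trade places, 915 were higher in both and 837 lower. Raising readings below background to the background level left 1136 and 759.

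**Figure D2:**
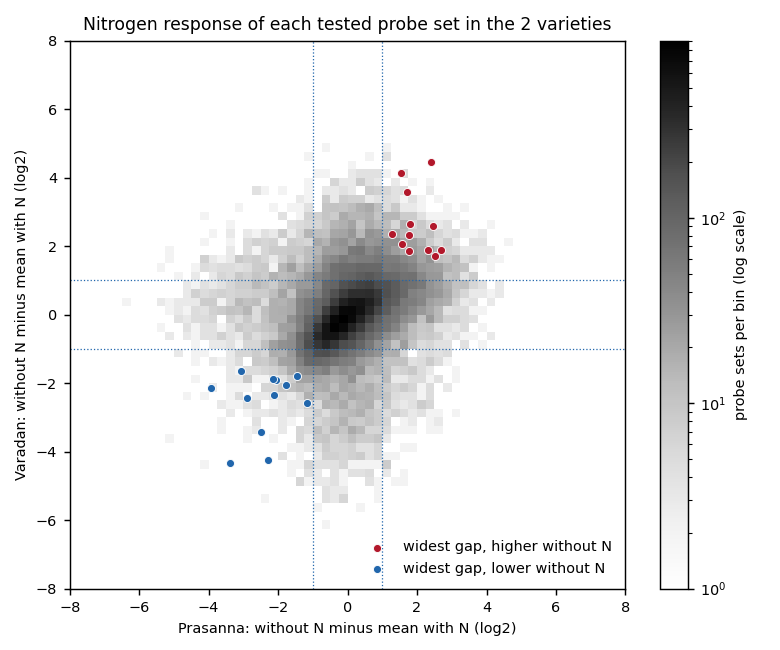
Response of each tested probe set in Prasanna (horizontal) and Varadan (vertical), both as log2 signal without nitrogen minus the mean of the 2 arrays with it, as counts per bin in grey on a log scale, with dotted lines at 2-fold. Coloured points are the 24 genes with the widest gap; 1840 probe sets lie in the upper right corner and 1088 in the lower left one.

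Varadan replicate 1 was then left out because its column is exchanged in the series matrix. That choice was made with earlier results of these data known, so the counts below are no independent evidence on nitrogen genes. Without Varadan replicate 1 (2 arrays against 3), 4616 of the 34316 probe sets passed (13.5%), 2044 higher without nitrogen (5.96%) and 2572 lower (7.5%). By gene, with the brightest probe set of each, 1674 of 21680 rose (7.72%) and 1941 fell (8.95%). Groups that did not overlap on these 5 arrays were seen for 4551 genes on the higher side (21%) and 5840 on the lower side (26.9%). All 4616 probe sets had the same direction in both varieties, and 2329 of them were at least 2-fold in each. The additive fit counts a difference between the varieties' responses as error, so it favours probe sets that move alike. The shared direction is therefore no separate evidence of a shared response. The count of 4616 depends on how the variance was modelled: without the trend of variance on level limma called 0, with 7778 at an unadjusted p under 0.05. It also rests on both varieties. Without the Prasanna array lacking nitrogen the test is of Varadan alone and called 396. Without the Varadan array lacking nitrogen or without Varadan replicate 2 it is of Prasanna alone and called 594 and 317. In these 3 fits the arrays lacking nitrogen are assumed to vary like the others. The 2 Prasanna fits give each probe set the same difference and the same residual. A call lost in only 1 of them therefore comes from how the variance was modelled and not from the response. The rule for named genes gave 111 that passed on 5 arrays, not all of which are described here, and 16 of them also passed with any 1 of the 5 arrays left out. Those 16 are marked where they are described. Among these omissions, the 2 of Varadan arrays test the same Prasanna response. A response in one variety alone is the value with an array of the other variety left out.

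Of the 24 genes with the widest gap over 6 arrays, 10 of the 12 higher and 9 of the 12 lower ones passed on 5. Among all genes 7.72% rose and 8.95% fell. The 24 were chosen by their gap on arrays that include these 5, so their passing was favoured and is no separate support. The Mei2-like gene ML3 fell by 3.05 ± 0.19 and passed with any array left out. SGR rose by 3.14 ± 0.37 and lost its call only in the Prasanna fit without Varadan replicate 2 (2.47, against 4.04 in Varadan alone). OsTBT2 passed in Varadan alone (3.91) but not in Prasanna alone (1.55). OsMIF2 (-2.06 in Prasanna and -1.91 in Varadan alone) and OsZHD10 (-2.14 and -2.38) lost their calls without the Prasanna array lacking nitrogen or Varadan replicate 2. OsiSAP1 (2.70 and 2.51), OsSTLP3 (1.80 and 3.05), CYP76M5 (1.78 and 2.68), IMCEL1 (-1.76 and -2.46) and OsORC1 (-1.18 and -2.49) passed in neither variety alone. OsGER8 (1.57 and 2.30) passed in neither, nor without the second Prasanna replicate. OsAHT1 passed in neither variety alone, nor without the first Prasanna replicate, and HAP2B lost its call whichever array was left out.

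Of 13 core nitrogen genes 5 rose and 4 fell on the 5 arrays (7.72% and 8.95% of all genes), those that rose being transport genes. Varadan replicate 1, left out of this fit, often read near the Varadan array without nitrogen. It read 12.29 for OsNRT2.3 (12.49 without nitrogen), 10.94 for OsDUR3 (10.57) and 10.73 for Os01g0357100 (11.26). With replicate 1 put back the groups overlapped for these genes, Os02g0620500 and Os03g0291500, but not for the other called genes. The high-affinity nitrate transporter gene OsNRT2.3 (Os01g0704100) passed with any array left out, at 4.37 in Prasanna alone and 4.71 in Varadan alone. The nitrate transporter gene OsNRT2.1 (2.70 and 1.85), its partner OsNAR2.1 (2.12 and 1.76) and the urea transporter gene OsDUR3 (3.71 and 3.55) rose on the 5 arrays but not in either variety alone. The same held for the AMT1 gene Os02g0620500 (at least 4.69 on 5 arrays), one of 2 neighbouring AMT1 loci. The other, Os02g0620600, read 13.62 and 13.31 without nitrogen and 12.12, 12.85, 12.98 and 12.79 with it, and did not pass (0.87 ± 0.25, adjusted p = 0.0656). The loci Os01g0357100 (-3.42 ± 0.23, past the threshold with any array left out) and Os03g0291500 (-2.76 ± 0.38) fell, as did the nitrate-induced repressor gene NIGT1 (-3.16 or lower) and Os01g0681900 (-1.11 ± 0.29). NIGT1 lost its call without the Prasanna array lacking nitrogen, Os03g0291500 in each variety alone (-2.28 and -3.40), and Os01g0681900 there (-0.79 and -1.54) and without the second Prasanna replicate. With 1 array left out, 1 to 6 core genes were called higher and 1 to 4 lower. The nitrate reductase gene NIA1 (Os08g0468100) read 12.02 without nitrogen and 13.89 and 13.92 with it in Prasanna, against 13.91, 13.24 and 13.15 in Varadan, and did not pass on the 5 arrays (adjusted p = 0.375). In Prasanna alone it was called lower (-1.88), and in Varadan alone it read 0.76 and was not called. With the columns exchanged as in the series matrix, the Varadan array without nitrogen would lie between those with it.

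The 12 genes beyond those with the widest gap that led the higher calls spanned purine breakdown, dehydration and redox genes. OsALN (Os04g0680400), the allantoinase gene that opens the allantoin ring and frees stored nitrogen, read 10.72 in Prasanna without nitrogen and 4.99 and 5.78 with it. In Varadan it read 10.44 without nitrogen, 10.30 on replicate 1 and 6.70 on replicate 2. It rose by at least 4.63 on the 5 arrays (adjusted p = 0.00238), while replicate 1, left out of this fit, read nearly as the array without nitrogen. The response was 5.33 in Prasanna alone and 3.74 in Varadan alone, and the call was lost without the Prasanna array lacking nitrogen. GRXC7 (Os05g0198200), a glutaredoxin gene, read 13.30 and 13.03 without nitrogen and 10.74, 10.72, 12.29 and 10.27 with it, and rose by 2.65 ± 0.15 (6.30-fold, adjusted p = 0.000597) with any array left out. OsLEA17, a late embryogenesis abundant gene (3.04 ± 0.45), RAB16B, a dehydrin gene (3.42 ± 0.65), OsNAC2, a NAC factor gene (3.53 ± 0.47), and XBOS36 (3.13 ± 0.30) rose too. In Prasanna and Varadan alone they read 3.19 and 2.85, 3.60 and 3.17, 3.59 and 3.45, and 3.56 and 2.55. XBOS36 lost its call without the Prasanna array lacking nitrogen, and the other three in each single variety.

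Among the further lower calls OsNSHB2 and OsCIN5 had the widest gaps between the groups. OsNSHB2 (Os03g0226200), a non-symbiotic haemoglobin gene, read 5.73 in Prasanna without nitrogen and 13.81 and 14.02 with it. In Varadan it read 8.33 without nitrogen, 5.55 on replicate 1 and 13.85 on replicate 2. Replicate 1 was thus lower than either array lacking nitrogen, and on the other five the gene fell by 7.04 ± 0.52 log2 units (adjusted p = 0.00117). Its sister gene OsNSHB1 (Os03g0233900) gave 7.18, 12.41 and 12.15 for Prasanna, then 9.52, 6.92 and 11.96 for Varadan, in the same order, and fell by 3.96 ± 0.52. Both passed with any array left out, at sizes of -8.18 and -5.52 (OsNSHB2) and -5.10 and -2.43 (OsNSHB1) in Prasanna and Varadan alone. The invertase gene OsCIN5 (Os04g0664900) gave 8.45, 12.16 and 12.08 for Prasanna, then 7.75, 7.94 and 12.81 for Varadan, and fell by 4.27 ± 0.31, also with any array left out. The aluminium transporter gene Nrat1 (-2.54 ± 0.20) and the kinase gene OsCIPK10 (-3.48 ± 0.17) passed in the same way, though the other probe set of Nrat1 read 0.37. The chitinase gene Cht1 (-3.68 or lower) and mfs1 (-2.41 ± 0.31) fell as well. Cht1 lost its call without the Prasanna array lacking nitrogen (-3.25), and mfs1 without that array (-1.96) or Varadan replicate 2 (-2.75); the other probe sets of mfs1 ran from -3.13 to 1.27.

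**Figure D3:**
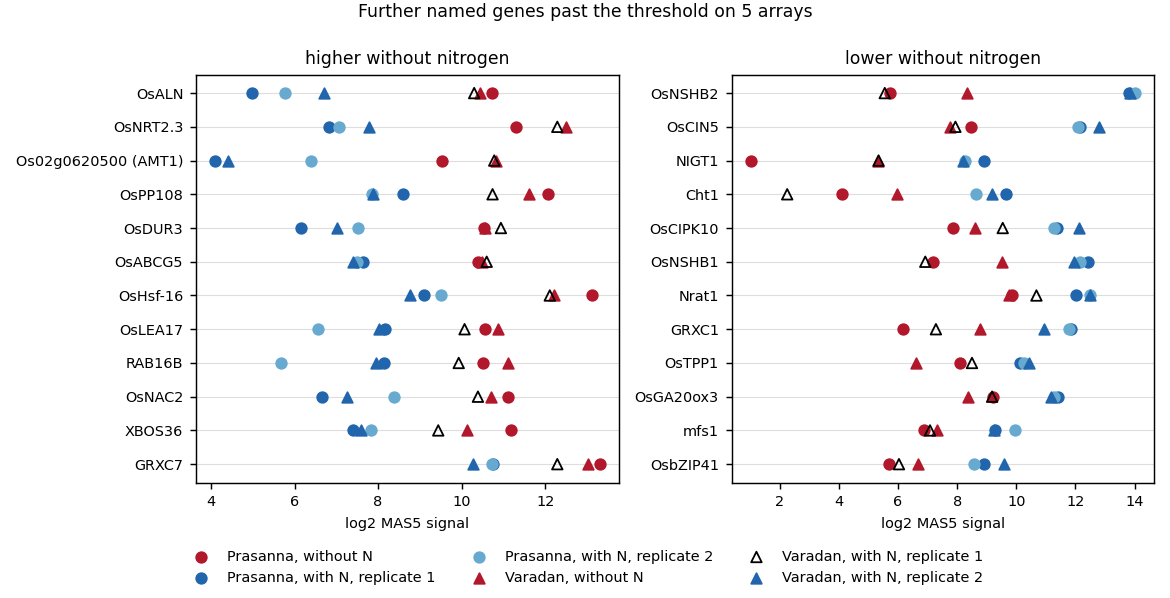
Log2 MAS5 signal of the 24 further named genes that passed on 5 arrays with the widest gap there, 1 point per array, marked as in the plot of the genes with the widest gap over all 6 arrays. The open black triangle, Varadan with nitrogen, replicate 1, was left out of that fit; it lies with the red points for genes such as OsALN (10.30) and OsNSHB2 (5.55) and between the groups for OsCIPK10 (9.54).

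Calcium sensor genes rose in a larger share than any other list of at least 8 genes. Of 24 calmodulin and calmodulin-like genes tested 12 rose and 0 fell, against 7.72% and 8.95% of all genes. Their median difference over 6 arrays was 0.78 (all genes -0.05), and 20 of the 24 lay above 0 (47.2% of all genes). CML14 (Os05g0577500) read 11.46 and 10.99 without nitrogen and 9.86, 9.65, 10.32 and 9.19 with it, and rose by 1.74 ± 0.18 (adjusted p = 0.00286). CML10 (1.66 ± 0.17), CML16 (2.05 ± 0.30) and CML18 (1.41 ± 0.17) rose too. In Prasanna and Varadan alone these 4 genes read 1.70 and 1.80, 1.54 and 1.81, 1.77 and 2.41, and 1.23 and 1.66. Without the Prasanna array lacking nitrogen, the Varadan array lacking nitrogen or Varadan replicate 2, the list kept 0, 2 and 0 calls. Calcium-regulated kinases split: of 31 genes for CIPK kinases and their CBL partners 6 rose, among them OsCIPK25 (1.93 ± 0.20) and OsCIPK29 (1.42 ± 0.22), and 3 fell. In Prasanna and Varadan alone the first pair read 1.91 and 1.97, and 1.48 and 1.35. These 6 became 0, 1 and 0, and the 3 became 1 each, under the same omissions. Of 20 calcium-dependent protein kinase genes 0 rose and 2 fell, OsCDPK24 (-0.67) and OsCDPK17 (-0.63). Both lost their calls without the second Prasanna replicate, and in each variety alone (-0.66 and -0.69, and -0.66 and -0.59). OsCDPK17 also lost it without the first (-0.63).

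Genes of abscisic acid signalling and dehydration stood out through single members. Of 58 protein phosphatase 2C genes 10 rose and 2 fell, with a list median of 0.06. The counts here are to be read beside the 7.72% of all genes that rose and the 8.95% that fell. OsPP108 (Os09g0325700), a phosphatase of abscisic acid signalling, read 12.07 without nitrogen and 8.59 and 7.85 with it in Prasanna. Its Varadan levels were 11.62 without nitrogen, 10.74 on replicate 1 and 7.89 on replicate 2. It rose by 3.80 ± 0.26 (13.96-fold, adjusted p = 0.000855) with any array left out. OsPP2C30 (3.14 ± 0.31) and OsPP2C09 (2.41 ± 0.24) rose as well. They read 3.05 and 3.27, and 2.51 and 2.27, in Prasanna and Varadan alone, and both lost their calls without the Prasanna array lacking nitrogen or Varadan replicate 2. The list kept 1, 3 and 1 higher calls in the 3 single-variety fits, in the order given for the calcium sensors. Of 40 homeodomain genes 9 rose and 4 fell, led by OsHox22 (2.38 ± 0.23) and OsHox4 (1.95 ± 0.18), a pair of leucine zipper factors. OsHox4 read 1.87 and 2.06 in the varieties alone and lost its call without the Prasanna array lacking nitrogen. OsHox22 (2.32 and 2.46) lost it there and without Varadan replicate 2. The list kept 0, 2 and 1 higher calls. Of 19 bZIP factor genes 2 rose, among them OsABF2 (1.37 ± 0.17), and 3 fell, among them OsbZIP41 (-2.97 ± 0.28) and OsbZIP11 (-2.32 ± 0.24). OsABF2 passed in neither variety alone (1.48 and 1.21), while the other two lost their calls only without Varadan replicate 2 (-3.03 and -1.98). OsbZIP11's other probe sets ran from -5.01 to -1.05. The bZIP counts and the 4 homeodomain genes that fell lie near the shares of all genes. Of 11 ERF factor genes 3 rose and 0 fell: DREB1G (2.90 ± 0.50), OsDREB1B.1 (3.24 ± 0.63) and CBF3 (1.25 ± 0.27). All 3 calls were lost in each single variety, at 2.39 and 3.59, 2.74 and 3.91, and 0.99 and 1.61.

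Genes for heat stress factors, which are known to control chaperone genes, rose in part. Of 22 heat stress transcription factor genes 8 rose and 0 fell, and of 23 heat shock protein genes 4 rose and 0 fell. The difference between these shares was not tested. Of all genes 7.72% rose and 8.95% fell. OsHsf-16 (Os06g0553100) gave 13.13, 9.10 and 9.50 for Prasanna, then 12.22, 12.11 and 8.77 for Varadan, in the order without nitrogen, replicate 1 and replicate 2. It rose by 3.67 ± 0.20 (12.69-fold, adjusted p = 0.000552) and, like OsHsf-05 (2.14 ± 0.17), passed with any array left out. OsHsf-02 rose too (2.14 ± 0.23) but in neither variety alone (1.97 and 2.36). The factor list kept 2, 3 and 3 calls in the single-variety fits. The small heat shock protein gene OsHsp18.6 (Os02g0782500) gave 9.96, 6.54 and 6.39 for Prasanna, then 10.13, 9.88 and 7.87 for Varadan, and rose by 2.97 ± 0.34. It lost its call without the Prasanna array lacking nitrogen (2.26). Of the chaperone genes 21 lay above 0 over all 6 arrays (47.2% of all genes), with a median of 0.43. The chaperone list kept 0, 1 and 1 calls in the single-variety fits.

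Genes of the root barrier rose in part. The endodermis seals the space between cells with Casparian strips and coats its walls with suberin. Of 25 genes for Casparian strip membrane proteins, their relatives and suberin formation 10 rose and 1 fell, against 7.72% and 8.95% of all genes. Above 0 over all 6 arrays were 22 of them (median 0.40), against 47.2% of all genes. OsABCG5 (Os03g0281900), a transporter needed for suberin in the rice hypodermis, gave 10.39, 7.64 and 7.50 for Prasanna, then 10.49, 10.60 and 7.41 for Varadan, so that replicate 1 stood with the arrays without nitrogen. It rose by 2.93 ± 0.23 (7.63-fold, adjusted p = 0.00128) with any array left out. OsBLE3 (2.1 ± 0.21) and OsCASPL2B1 (2.06 ± 0.25) rose as well, at 1.89 and 2.38, and 1.79 and 2.43, in the varieties alone. OsBLE3 lost its call without Varadan replicate 2, and OsCASPL2B1 in both varieties alone. The list kept 2, 3 and 1 higher calls in the single-variety fits. OsCASP1, chosen after its values were seen, was not called and gave 9.89, 8.26 and 9.72 for Prasanna, then 9.16, 10.24 and 8.91 for Varadan. The laccase gene LAC10 rose by 2.74 ± 0.38 and LAC3 by 1.36 ± 0.21, while LAC19 fell (-1.92 ± 0.29). Varadan replicate 1, left out of this fit, read 10.63 for LAC10 and 11.38 for LAC3, above both arrays without nitrogen. For LAC19 it read 8.27, between those arrays. Of 8 laccase genes 3 rose and 2 fell, none of them in a single-variety fit. The cellulose synthase genes OsCesA7 (1.59 ± 0.15) and OsCesA4 (1.10 ± 0.20), known from secondary walls, rose, and the glucan synthase relative OsCslF8 fell (-1.90 ± 0.31). OsCslF8 lost its call without the Prasanna array lacking nitrogen (-1.22), OsCesA7 there (1.70) and without Varadan replicate 2 (1.5), and OsCesA4 in each variety alone (0.84 and 1.45).

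Of 24 sugar transporter and invertase genes 6 fell and 3 rose, against 8.95% and 7.72% of all genes. OsCIN5 and OsCIN2 (-1.62 ± 0.25) were among those that fell. OsSWEET2b (2.09 ± 0.28), a SWEET transporter gene, was among those that rose. OsCIN2 (-1.50 and -1.79) and OsSWEET2b (1.79 and 2.49) passed in neither variety alone, and the list kept 1, 1 and 1 lower and 0, 0 and 0 higher calls. Of 8 genes for trehalose phosphate phosphatases, which remove the sugar signal trehalose 6-phosphate, 3 fell. OsTPP1 (Os02g0661100) read 8.11 and 6.60 without nitrogen and 10.12, 10.27, 8.50 and 10.42 with it, and fell by 2.83 ± 0.38 (adjusted p = 0.00678). OsTPP7 (-2.23 ± 0.27) and OsTPP2 (-1.52 ± 0.17) fell too, but the other probe sets of OsTPP7 read 0.17 to 0.26. OsTPP1 and OsTPP7 lost their calls only without Varadan replicate 2 (-2.08 and -1.77), and OsTPP2 in both varieties alone (-1.36 and -1.73).

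All 6 gibberellin genes lay below 0 over the 6 arrays, with a median of -0.89, and 3 fell on 5 arrays: OsGA20ox3, OsCPS and OsKO1, which act at late and early steps of synthesis. OsGA20ox3 (Os07g0169600) read 9.20 and 8.36 without nitrogen and 11.41, 11.28, 9.18 and 11.18 with it, and fell by 2.44 ± 0.21 (5.41-fold lower, adjusted p = 0.00183) with any array left out. OsCPS (-1.75 ± 0.34) and OsKO1 (-0.90 ± 0.19) passed in neither variety alone (-1.46 and -2.14, and -0.94 and -0.86). Of 49 genes for auxin repressors and response factors 7 fell and 1 rose. Below 0 over the 6 arrays were 33 of them, against 11453 of all 21680 genes. ARF5 (-2.44 ± 0.27), OsARF7a (-1.42 ± 0.17) and OsARF6a (-1.43 ± 0.19) fell. ARF5 lost its call only without Varadan replicate 2 (-2.11), and the other two in both varieties alone (-1.34 and -1.52, and -1.17 and -1.77). Of 10 cytokinin synthesis genes 1 fell, LOGL3 (-1.56 ± 0.20), and 1 rose, LOGL5 (1.08 ± 0.27). These counts lie near the shares of all genes, 8.95% lower and 7.72% higher. LOGL3 passed in neither variety alone (-1.39 and -1.80), and LOGL5 passed in neither (0.84 and 1.39) nor without the second Prasanna replicate (0.96). The jasmonate genes AOS4 (1.70 ± 0.23) and AOS (Os03g0225900, 1.84 ± 0.33), for allene oxide synthases, rose among 34 cytochrome P450 genes of which 6 rose and 3 fell. Both passed in neither variety alone (1.55 and 1.89, and 1.60 and 2.15), and the 6 became 0 in each single-variety fit.

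Below 0 over the 6 arrays were 11453 of all 21680 genes. Of 10 argonaute genes, whose proteins carry small RNAs to their targets, all lay below 0 over 6 arrays (median -1.0) and 4 fell on 5 arrays. OsAGO4b (Os04g0151800) read 10.46 and 10.85 without nitrogen and 11.63, 11.46, 11.77 and 12.10 with it, and fell by 1.15 ± 0.16 (adjusted p = 0.00761). OsAGO18 (-1.50 ± 0.22) and OsAGO1a (-1.27 ± 0.20) fell too. None of the 4 passed in a single variety, where these 3 read -1.08 and -1.25, -1.42 and -1.62, and -0.96 and -1.69. Of 33 genes for kinesins, which are microtubule motors, 32 lay below 0 over 6 arrays, with a median of -0.54. Only 2 fell on 5 arrays, OsKCBP (-1.13 ± 0.24) and KIN12E (-1.53 ± 0.36), a smaller share than the 8.95% of all genes. Both lost their calls without the second Prasanna replicate or in a single variety (-0.95 and -1.36, and -1.11 and -2.09). The kinesin mean was 8.87 and 8.50 without nitrogen and 9.08, 9.35, 9.51 and 9.32 with it. Of 25 ribosomal protein genes limma called 0 on the 5 arrays.

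Other families moved in few members, to be read beside the 7.72% of all genes that rose and the 8.95% that fell. The expansin and CCCH counts given here lie near those shares or under them. Of 19 glutaredoxin genes 4 rose and 3 fell, and GRXC1 (-4.15 ± 0.67) and GRXC15 (-2.49 ± 0.21) fell with any array left out. Of 35 expansin genes, for wall-loosening proteins, 3 rose and 0 fell, with OsEXLA4 at 1.45 ± 0.24. It passed in neither variety alone (1.23 and 1.73). All 10 histone genes lay above 0 over the 6 arrays, against 47.2% of all genes. On 5 arrays 2 rose, OSH45 (0.98 ± 0.15) and H2B.6 (0.80 ± 0.18). Neither passed in a single variety (0.93 and 1.05, and 0.85 and 0.73). Of 47 CCCH zinc finger genes 2 rose and 5 fell, OsC3H33 at 1.08 ± 0.15 and OsC3H27 at -0.98 ± 0.15. All of these calls were lost in the single-variety fits (1.18 and 0.95 for OsC3H33, -0.95 and -1.02 for OsC3H27). The ferredoxin-NADP reductase genes, which supply electrons to nitrite reductase, went opposite ways. The FNR gene Os03g0784700 fell by 2.11 ± 0.23 and the FNR gene Os07g0147900 rose by 0.90 ± 0.21. The first lost its call without the Prasanna array lacking nitrogen (-1.72), and the second in both varieties alone (0.63 and 1.26). Of 7 genes of sulfate uptake and assimilation 1 fell, CSase (-1.62 ± 0.22), which passed in neither variety alone (-1.82 and -1.35).

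**Figure D4:**
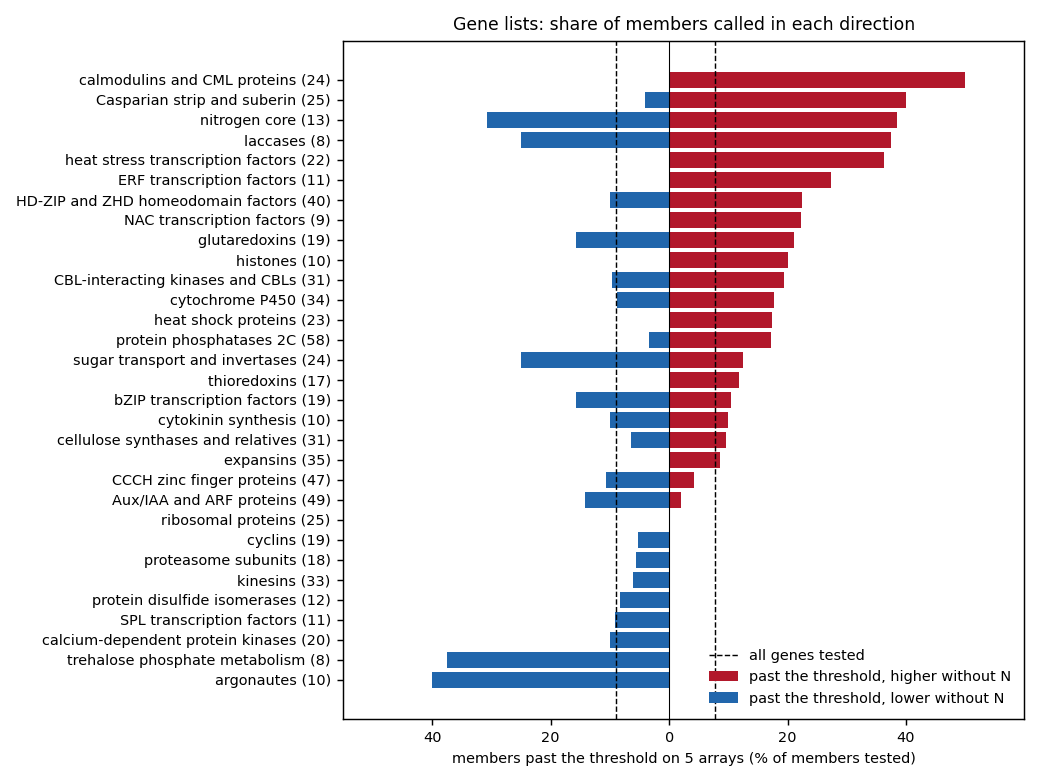
Share of the tested members of each gene list with at least 8 tested members (number in brackets) that passed on 5 arrays, higher without nitrogen to the right and lower to the left, in percent. Dashed lines mark all genes tested, 7.72% higher and 8.95% lower; the calmodulin list, with 12 of 24, reaches farthest to the right and the argonautes, with 4 of 10, farthest to the left.

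The array left out was then placed between the other Varadan arrays, gene by gene. A position of 0 is the level of Varadan replicate 2 with nitrogen and 1 is the level of Varadan without nitrogen, for probe sets that differ by at least 1 log2 unit between those arrays. The fit chose probe sets by those 2 arrays and not by replicate 1, so the positions are given as a description. Over all 11686 such probe sets the median position was 0.459. It was 0.537 for those with Varadan without nitrogen the higher array and 0.383 for those with it the lower. Among 1452 probe sets that rose on 5 arrays it was 0.725 (quartiles 0.486 and 0.957), and among 1742 that fell it was 0.548. A position above 0.75, nearer the array without nitrogen, was held by 47.0% of those that rose and 28.6% of those that fell. Among all such probe sets, called or not, these shares were 31.8% where Varadan without nitrogen was higher and 20.3% where it was lower. Of the 4616 probe sets called on 5 arrays, 1289 had groups that overlapped once replicate 1 was put back.

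List medians were taken over called members with at least that difference between the Varadan arrays. The highest was 1.18 over 5 cellulose synthase genes and relatives. The core nitrogen genes had a median of 0.98 over 9 genes, the barrier genes 1.0 over 8, the laccases 1.16 over 5 and the sugar genes 0.88 over 5. The bZIP factors (0.92 over 4), the heat shock proteins (0.89 over 3), the heat stress factors (0.79 over 8) and the CIPK and CBL genes (0.83 over 4) were also above 0.75. Replicate 1 thus stood nearer to the array without nitrogen in the middle of these lists. The calmodulin-like genes stood midway at 0.53 over 9 genes, the protein phosphatases 2C at 0.55 over 6, the trehalose phosphate genes at 0.50 over 3 and the argonautes at 0.51 over 3. The auxin genes (0.40 over 5), the P450 genes (0.36 over 6), the CCCH genes (0.21 over 3) and the ERF factors (0.05 over 3) stood nearer to replicate 2. For these last groups replicate 1 read more like the other array with nitrogen, as for OsMIF2 (-0.0052), OsORC1 (-0.07) and OsKCBP (0.03) among single genes. OsMIF2 and OsORC1 were chosen by a gap that counts replicate 1 among the arrays with nitrogen, so their positions near 0 were favoured. These medians rest on few genes and were not tested against each other.

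**Figure D5:**
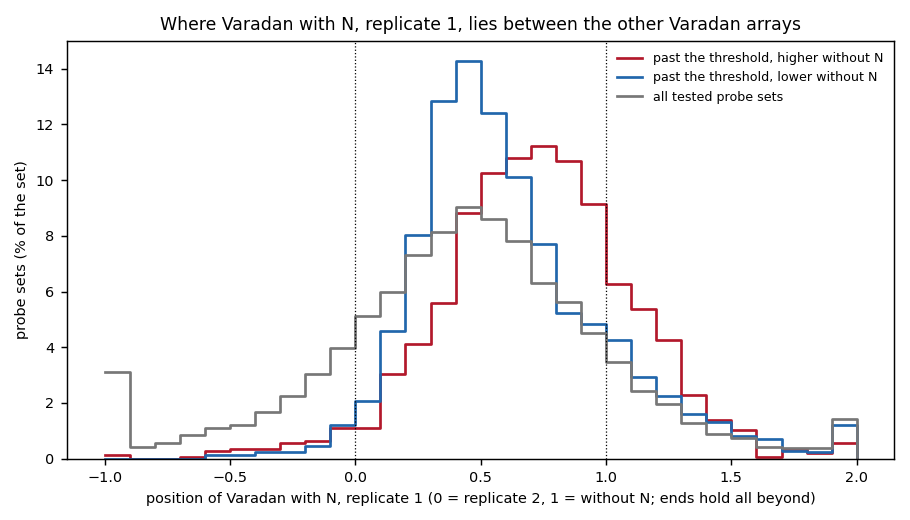
Position of Varadan with nitrogen, replicate 1, between replicate 2 (0) and Varadan without nitrogen (1) for probe sets at least 1 log2 unit apart between those arrays, as percent of each set in bins of 0.1, with the end bins holding all beyond. Probe sets that rose on 5 arrays (red) centre nearer to 1 (median 0.725) than those that fell (blue, 0.548) and all tested probe sets (grey, 0.459). The grey set pools both directions, with medians of 0.537 where Varadan without nitrogen was higher and 0.383 where it was lower.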

How the data were processed

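Root RNA of 6 samples was hybridised to Affymetrix rice arrays. The deposited log2 table holds log2 MAS5 signals, per the submitters' processing notes, used unaltered. Linear intensity values of the same arrays, with 2 Varadan columns exchanged, stand in the deposited series matrix, which served as an alternative. After trimming 2% at each end the mean intensity of every array was 500, so the scaling hides any change common to most genes.

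Of 57381 probe sets, 187 controls were left out, and 34316 with a mean at or above the 40th percentile were tested. Readings below an array's own 40th percentile (4.89 to 5.42) count as below background. Differences that rest on them are bounds, with such readings raised to that level and no SE.

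limma 3.58.1 in R 4.3.3 (lmFit, eBayes with trend) fitted variety and nitrogen supply, with Benjamini-Hochberg adjustment over all tested probe sets. The fit was tested on simulated data. Errors are SE unless stated, and the number of arrays limits the precision.

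Loci come from the deposited table. Symbols were taken as synonyms listed in RefSeq's gene table (assembly ASM3414082v1), which held 30590 probe sets; 2520 of 21680 tested genes had a symbol. Of several probe sets the brightest on average was used. The 38 lists were formed from symbols. The members, lists and comparison were chosen with earlier results of these data known. Named were the 12 genes per direction with the widest gap over 6 arrays, the next 12 called with the widest gap over 5, up to 3 called members of each list by p (or, with none called, the largest difference), and the core nitrogen genes. Filters, trend, robust variance, quantile scaling, a floor, no variety term, the series matrix and each array left out were the alternatives.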

Additional observations from a re-analysis of the deposited data

Results flagged for a closer look

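The nitrate reductase gene NIA1 (Os08g0468100) was lower without nitrogen than on both arrays with it in Prasanna and higher than on both in Varadan. The Varadan response exceeded that of Prasanna by 2.60 log2 units. In Prasanna alone the gene was called lower and in Varadan alone it was not called. With the Varadan columns exchanged as in the series matrix, the array without nitrogen would read 13.24 against 13.91 and 13.15 with it, so it would no longer lie above both. In the log2 table every array moved in its variety's direction, but the difference was not tested beyond the fit across all probe sets, in which no difference between the varieties' responses passed.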

How the results depend on the processing

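With 6 arrays limma called 0 probe sets under every alternative but the omission of Varadan with nitrogen, replicate 1 (range 0 to 4616 with 1 array left out). On 5 arrays the 4616 calls became 2880 in the series matrix, 1918 with no variety term and 0 without the trend of variance, and 317 to 5363 with 1 array left out. The other alternatives gave 4086 to 5336. Called in the same direction in both tables were 2518, whose inputs share 4 arrays. The probe sets at least 2-fold higher in both varieties (1840) became 5341 with no filter, 752 with the filter at the 60th percentile, 915 in the series matrix, 1136 with readings below background raised, 4296 at 1.5-fold and 186 at 4-fold, and 1251 to 2472 with 1 array left out. Those lower (1088) became 2793, 674, 3428 and 145 with no filter, the 60th percentile, 1.5-fold and 4-fold, and 691 to 1697 with 1 array left out. The median position of 0.625 over both directions became 0.716 at a smallest difference of 2 log2 units.

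Of 1613 alternative values of named genes 1213 kept their direction and side of the threshold, 360 lost the call, 29 gained it and 11 changed sign. In the series matrix these were DREB1G (-0.59), OsTBT2 (-0.44), CLPC3 (-0.10), OsORC1 (0.12), OsGLN1.2 (-0.02) and OsACS2 (-0.18). OsGLN1.2 also turned with quantile scaling (-0.24) and without Prasanna with nitrogen, replicate 1 (-0.07, in a range of -0.07 to 0.14 with 1 array left out). NIA1 read 0.76 without the Prasanna array lacking nitrogen (range -1.88 to 0.76), and Os07g0589000 read 0.08 without the Varadan array lacking nitrogen and 0.08 without Varadan with nitrogen, replicate 2 (range -0.85 to 0.08). The cause was not tested. No paired analysis was possible because the groups without nitrogen hold 1 array each, so they share fewer than 2 replicate numbers with the groups with it.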
